A study of Drosophila melanogaster with 32 samples.

Results

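Attacins, drosocin, metchnikowin and edin are peptides that Drosophila makes in response to infection. The genes described here are AttA, AttB, AttC, AttD, Dro, Mtk and edin, taken by name, which makes 7 of the 17737 genes listed in the raw counts. All 7 were detected in every sample and passed the filter on low counts. They were measured by RNA-Seq in Smurfs, flies whose body turns blue because a food dye has crossed the gut wall, and in non-Smurfs of the same age. Each of the 32 samples was a pool of whole mated females of genotype Drs-GFP, a line that carries a green fluorescent reporter of the drosomycin gene, and all flies had eaten food with the dye FD&C #1. The groups were 4 Smurf and 4 non-Smurf samples at 20 days, 6 and 6 at 30 days, and 6 and 6 at 40 days. Smurfs were collected within 1 day of the transition (9 samples), within 5 hours of it (4 samples, none at 20 days) or with no known time (3 samples, called mixed), and non-Smurfs were taken at the same moments. Both 30-day mixed samples, Smurf M-10 and non-Smurf M-7, carry 32 days as their age in the sample labels. The pools came from 1 isogenic population, so the p-values measure the spread between pools of that cohort.

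Attacins are glycine-rich and drosocin is proline-rich, and both act mainly on Gram-negative bacteria. Metchnikowin is proline-rich too and is known for its action on fungi and Gram-positive bacteria. Transcription of these genes after infection runs chiefly through the Imd pathway, in which receptors for bacterial peptidoglycan lead to the cleavage and nuclear entry of the NF-kappaB factor Relish, and Mtk also responds to the Toll pathway. In systemic infection the fat body is the main source, while gut and other epithelia can express some of the peptides locally. In pools of whole flies, fewer cells of a type and less RNA per cell cannot be told apart.

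Dro (FBgn0010388), AttA (FBgn0012042) and AttB (FBgn0041581) lie side by side on the + strand of chromosome arm 2R in the BDGP6.54 annotation, at 14745961 to 14746714, 14747362 to 14748215 and 14749223 to 14750165. The gaps between them are 647 and 1007 bases, with no gene in between. AttC (FBgn0041579, 2R from 13393705 to 13394667) and Mtk (FBgn0014865, 2R from 15408846 to 15409113) are on the same arm. AttD (FBgn0038530) is on 3R from 17625268 to 17626086 and edin (FBgn0052185) on 3L from 17494880 to 17495300. AttA and AttB are near-identical copies, so the split of reads between them is uncertain. Mtk lies inside Stacl and edin inside Oatp74D, each on the same strand with 0 shared exon bases, and 53 exon bases of AttC overlap CG4744 on the other strand. CG4744 had at most 17 counts in any sample, against at least 580 for AttC. Stacl was between 36.6 and 69.2 CPM (counts scaled to the library size, after TMM normalisation) over all samples and was upregulated in Smurfs over all ages, as Mtk was, with a log2FC of 0.26 (SE 0.08, edgeR BH-adjusted p = 0.0238). At 30 days its log2FC was 0.40 (SE 0.14, edgeR BH-adjusted p = 0.0462). Oatp74D had a log2FC of −0.46 in Smurfs over all ages (SE 0.16, edgeR BH-adjusted p = 0.0289), the direction opposite to that of edin.

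The total count per sample ranged from 12164198 to 22798065. Markers of fat body, haemocytes, gut and eggshell were detected in all groups, and each of 5 genes of the male accessory gland had at most 3 counts in every sample. One library stood apart for the genes described here. The 40-day non-Smurf 1d-o had levels found otherwise in Smurfs, and results that rest on it are given with and without it where both were computed. Correlations, spreads, the ranking of similar genes and the tests of the gene lists were computed only with it.

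Per kilobase of exon, the scale on which genes can be compared, the median level over the 32 samples was highest for AttC (371 CPM per kb), followed by AttA (295), Mtk (107), AttB (85.5), Dro (75.0), AttD (24.5) and edin (3.88). The 7 genes together took between 0.00878% and 0.0236% of all counts in 20-day non-Smurfs, and between 0.150% and 0.222% in 20-day Smurfs. At 30 days the ranges were 0.0175% to 0.0652% in non-Smurfs and 0.131% to 0.626% in Smurfs. At 40 days they overlapped, with 0.0331% to 0.307% in non-Smurfs and 0.0760% to 0.254% in Smurfs. The 0.307% was that of the non-Smurf 1d-o. The other 40-day non-Smurfs lay between 0.0331% and 0.0669%, below the lowest Smurf.

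The 4 attacins were low in 20-day non-Smurfs and high in Smurfs of the same age. AttA was at 20.2, 18.1, 49.7 and 56.9 CPM in the non-Smurf samples 1d-a, 1d-b, 1d-c and M-1, and at 495, 735, 503 and 447 CPM in the Smurf samples 1d-d, 1d-e, 1d-f and M-4. The lowest Smurf was thus far above the highest non-Smurf. At 30 days the non-Smurfs ranged from 43.3 to 173 CPM (median 109) and the Smurfs from 411 to 1573 CPM (median 739). At 40 days the non-Smurfs ranged from 88.5 to 890 CPM (median 125) and the Smurfs from 233 to 820 CPM (median 264). The groups were apart at 20 and 30 days and overlapped at 40 days, where the highest of the 12 samples was the non-Smurf 1d-o.

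AttB, the neighbouring copy, had lower levels. It was at 6.89, 6.14, 10.1 and 22.5 CPM in the 20-day non-Smurfs 1d-a, 1d-b, 1d-c and M-1, and at 212, 312, 271 and 198 CPM in the 20-day Smurfs 1d-d, 1d-e, 1d-f and M-4. The 30-day non-Smurfs spanned 15.3 to 56.9 CPM (median 41.4), and the 30-day Smurfs 162 to 828 CPM (median 270). At 40 days the spans were 20.4 to 400 CPM (median 41.2) in non-Smurfs and 66.9 to 278 CPM (median 103) in Smurfs. The count of AttA over that of AttB was between 1.85 and 3.85 in the 16 Smurfs (median 2.57) and between 2.23 and 4.91 in the 16 non-Smurfs (median 2.94), so AttA had more counts in every sample.

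AttC, the most abundant of the 7 genes per length, was at 44.5, 46.9, 56.1 and 96.9 CPM in the 20-day non-Smurfs 1d-a, 1d-b, 1d-c and M-1. The 20-day Smurfs 1d-d, 1d-e, 1d-f and M-4 had 510, 775, 861 and 641 CPM. At 30 days AttC ranged from 102 to 338 CPM in non-Smurfs (median 202) and from 528 to 2590 CPM in Smurfs (median 1088), again without overlap. At 40 days it ranged from 171 to 1452 CPM (median 218) and from 314 to 1073 CPM (median 369), with overlap.

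AttD, the attacin on 3R, had the lowest level of the 4. The 20-day non-Smurfs 1d-a, 1d-b, 1d-c and M-1 had 3.41, 5.90, 3.08 and 6.63 CPM, and the 20-day Smurfs 1d-d, 1d-e, 1d-f and M-4 had 28.9, 56.5, 43.95 and 60.2 CPM. The range at 30 days was 2.63 to 15.3 CPM in non-Smurfs (median 9.93) and 40.8 to 388 CPM in Smurfs (median 83.6). At 40 days 5 of the 6 non-Smurfs lay between 6.85 and 14.3 CPM and the non-Smurf 1d-o at 177 CPM, while the Smurfs ranged from 16.0 to 158 CPM (median 29.3). All 6 of these Smurfs were above the 5 non-Smurfs and below 1d-o.

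Dro, which encodes drosocin, was at 5.26, 7.51, 7.89 and 27.5 CPM in the 20-day non-Smurfs 1d-a, 1d-b, 1d-c and M-1, and at 147, 231, 217 and 245 CPM in the 20-day Smurfs 1d-d, 1d-e, 1d-f and M-4. At 30 days it ranged from 9.74 to 44.0 CPM in non-Smurfs (median 21.6) and from 79.0 to 514 CPM in Smurfs (median 161). At 40 days the ranges were 14.1 to 275 CPM (median 30.6) and 35.3 to 194 CPM (median 98.6). Mtk, which encodes metchnikowin, had the smallest distance between the groups. It was at 8.12, 9.53, 6.91 and 31.8 CPM in the 20-day non-Smurfs 1d-a, 1d-b, 1d-c and M-1, and at 50.5, 59.1, 40.6 and 64.9 CPM in the 20-day Smurfs 1d-d, 1d-e, 1d-f and M-4. At 30 days the highest non-Smurf had 29.9 CPM and the lowest Smurf 30.8 CPM, with medians of 23.3 and 66.4 CPM. At 40 days non-Smurfs ranged from 6.01 to 69.2 CPM (median 17.3) and Smurfs from 15.8 to 69.0 CPM (median 20.5).

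The gene edin, named for being elevated during infection, had the lowest level and the widest range of the 7. It had 4, 3, 13 and 20 counts in the 20-day non-Smurfs 1d-a, 1d-b, 1d-c and M-1, against 79, 184, 204 and 200 counts in the 20-day Smurfs 1d-d, 1d-e, 1d-f and M-4. At 30 days it was between 0.441 and 2.07 CPM in non-Smurfs (median 0.901) and between 4.99 and 135 CPM in Smurfs (median 14.1). The top of that range was set by the Smurfs 5h-c3 and M-10, with 2653 and 1399 counts, and no other sample of the study had more than 360. At 40 days edin was between 0.457 and 23.1 CPM in non-Smurfs (median 1.08) and between 1.19 and 18.4 CPM in Smurfs (median 2.47). Over the 32 samples the highest CPM of edin was 557 times the lowest, against 22.6 times for Mtk.

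**Figure D1:**
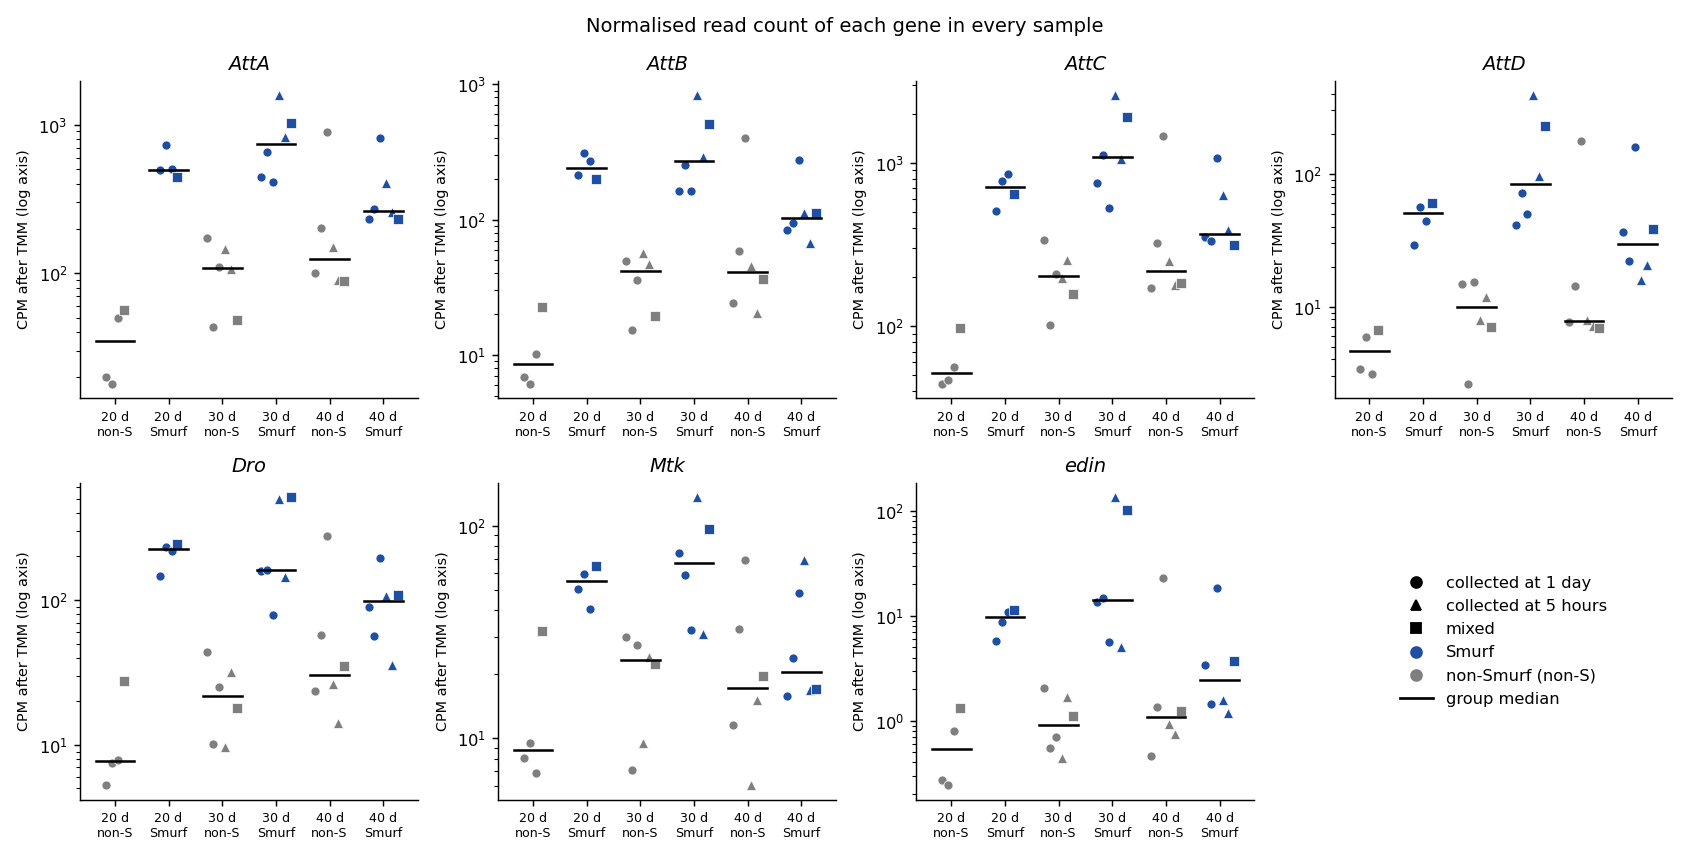
Normalised read count (CPM after TMM, log axis) of each gene in every sample, with 1 point per sample, the shape giving the collection moment, the colour the state and the black line the median of the group. Smurfs lie above non-Smurfs at 20 and 30 days in all 7 panels, and at 40 days the non-Smurf 1d-o, at 890 CPM of AttA, lies among or above the Smurfs.

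Smurfs and non-Smurfs were first compared over all ages. All 7 genes were upregulated in Smurfs, and of the 10052 genes tested 11.4% were called upregulated. The log2FC was 2.03 for AttA (SE 0.41, edgeR BH-adjusted p = 0.000768), 2.21 for AttB (SE 0.47, adjusted p = 0.0012), 1.77 for AttC (SE 0.40, adjusted p = 0.00199) and 2.19 for AttD (SE 0.56, adjusted p = 0.00549). It was 2.28 for Dro (SE 0.47, edgeR BH-adjusted p = 0.000772), 1.34 for Mtk (SE 0.33, adjusted p = 0.0042) and 3.23 for edin (SE 0.72, adjusted p = 0.0017), which ranked 3 among all genes by log2FC. The median over the 7 genes was 2.19, and over all genes tested −0.01. Without the non-Smurf 1d-o the log2FC was 2.64 for AttA, 3.02 for AttB, 2.31 for AttC, 3.37 for AttD, 3.03 for Dro, 1.58 for Mtk and 4.51 for edin. DESeq2, fitted on all samples with its default handling of outlying counts, gave 3.20 for AttD and 4.31 for edin. The part of that handling in these values was not tested. AttA, AttB and AttC were above the mean of the 16 non-Smurfs in 16 of 16 Smurfs, AttD and Dro in 15, and Mtk and edin in 13. That mean included 1d-o. Taken against the median of the 16 non-Smurfs, the number was 16 for all genes but Mtk, where it stayed at 13. These numbers were not computed over all genes. The count of 7 held with any 1 sample left out and with collection event (age and collection moment) as a block, where log2FC ran from 1.41 to 2.90. In the 18 samples collected at 1 day, with no term for age, 0 of 7 were called by edgeR, 4 had an unadjusted p under 0.05, and log2FC ran from 1.00 to 1.60, while 10.9% of all genes were called in either direction. Without the non-Smurf 1d-o, which is among those 18, 7 of 7 were called, with log2FC from 1.42 to 3.47, beside 11.6% of all genes. In the 8 samples collected at 5 hours, 0 of the 7 and 0 of all 10086 genes were called by edgeR, while the 7 members had log2FC from 2.23 to 5.27 and an unadjusted p under 0.05.

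At 20 days 6 of the 7 genes were upregulated in Smurfs, beside 4.38% of all genes tested. The largest log2FC was that of AttB (4.45, SE 0.81, edgeR BH-adjusted p = 0.00138), followed by Dro (4.14, SE 0.83, adjusted p = 0.00231), AttA (3.93, SE 0.69, adjusted p = 0.00116), AttC (3.53, SE 0.62, adjusted p = 0.00116) and AttD (3.34, SE 1.02, adjusted p = 0.0316). Mtk was at 1.95 (SE 0.64, edgeR BH-adjusted p = 0.0478), close to the threshold of 0.05. The gene edin, with a log2FC of 3.76 (SE 1.30), had an edgeR BH-adjusted p of 0.0584 and was not called, although all 4 Smurfs were above all 4 non-Smurfs. Without the 40-day non-Smurf 1d-o, which enters this fit through the shared estimate of spread, its log2FC was the same and its edgeR BH-adjusted p 0.0185. This absence of overlap was seen for all 7 genes at 20 days, and for 8.23% of all genes.

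At 30 days all 7 genes were upregulated, beside 8.22% of all genes. The attacins had log2FC of 3.002 (AttA, SE 0.53, edgeR BH-adjusted p = 0.000793), 3.33 (AttB, SE 0.62, adjusted p = 0.000964), 2.69 (AttC, SE 0.49, adjusted p = 0.00086) and 3.90 (AttD, SE 0.81, adjusted p = 0.00218). For Dro it was 3.51 (SE 0.65, edgeR BH-adjusted p = 0.000958), for Mtk 1.85 (SE 0.52, adjusted p = 0.0156) and for edin 5.43 (SE 1.03, adjusted p = 0.00101), the highest log2FC of all 10529 genes tested. Every Smurf was above every non-Smurf for all 7 genes, as for 3.47% of all genes. For Mtk the margin was that between 30.8 and 29.9 CPM. Mtk lost its call, leaving 6 of 7, without both samples labelled 32 days (1.76, edgeR BH-adjusted p = 0.0632) and without the mixed samples (1.77, adjusted p = 0.0669).

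At 40 days 0 of the 7 genes were called by edgeR, and 0.0475% of all genes were called upregulated. None of the 7 had an unadjusted p under 0.05, and DESeq2 called 0 as well. The log2FC lay between 0.18 (edin, 95% interval −1.62 to 1.97) and 0.56 (AttA, −0.45 to 1.58), with edgeR BH-adjusted p from 0.744 to 0.967. Smurfs and non-Smurfs overlapped for all 7 genes, and every Smurf was above every non-Smurf in 0.259% of all genes. The share of all genes in which the highest sample was a non-Smurf was not computed. In each of the 7 the highest non-Smurf was above all 6 Smurfs. That non-Smurf was 1d-o in all 7 genes. Its level was between 4.59 times (Mtk) and 25.1 times (edin) the median of the other 5 non-Smurfs of that age. Without it, 3 of the 7 genes were called upregulated at 40 days, AttA (log2FC = 1.55, edgeR BH-adjusted p = 0.0454), AttB (1.74, adjusted p = 0.0384) and AttD (2.46, adjusted p = 0.0289), beside 2.04% of all genes called in either direction. For these 3 every Smurf was then above every non-Smurf, as for 1.56% of all genes, while the other 4 still overlapped. An earlier clustering of these data placed 3 Smurfs of this age, 5h-c8, 5h-c7 and 1d-p, with the non-Smurfs. Without these Smurfs 0 of the 7 and 1.03% of all genes were called by edgeR in either direction, with 0 of the 7 at an unadjusted p under 0.05. Without them and 1d-o together 3 of the 7 and 4.18% of all genes were called, with log2FC from 0.81 to 3.09 over the 7.

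**Figure D2:**
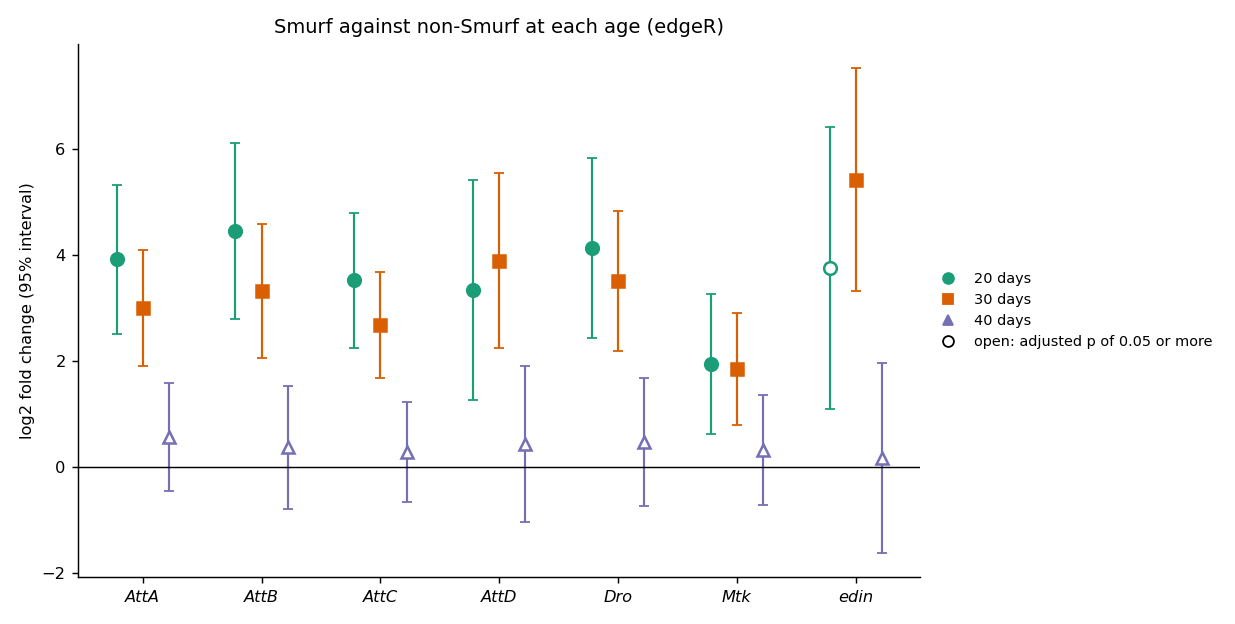
The log2FC of Smurfs against non-Smurfs with its 95% interval (y axis) for each gene (x axis) at 20, 30 and 40 days, from the edgeR fit of 6 groups, with open symbols where the adjusted p was 0.05 or more. All 7 estimates are above 1.8 at 20 and 30 days and between 0.18 and 0.56 at 40 days, where every interval holds 0.

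Whether the difference between Smurfs and non-Smurfs itself changed with age was tested as an interaction, the log2FC at 40 days minus that at 20 days. It was negative for all 7 genes, between −1.62 (Mtk, SE 0.81) and −4.08 (AttB, SE 0.95). With edgeR 0 of the 7 passed the threshold, and 0.038% of all genes were called lower. AttC (−3.24, SE 0.75, edgeR BH-adjusted p = 0.054), AttB (adjusted p = 0.0573) and AttA (−3.36, SE 0.81, adjusted p = 0.0745) were the nearest to it. An unadjusted p under 0.05 in edgeR was found for 6 of the 7, all but Mtk, and for 1322 of all 10529 genes. DESeq2 called 4 of the 7, beside 0.892% of all genes called in either direction. Without the non-Smurf 1d-o alone, 0 were called and 4 had an unadjusted p under 0.05 in edgeR, and the interaction was −2.38 for AttA, −2.71 for AttB, −2.32 for AttC, −0.88 for AttD, −2.48 for Dro, −1.04 for Mtk and −1.33 for edin. Without 1d-o and the 3 Smurfs named above, it ran from −2.32 to −0.28 with 0 called and 4 at an unadjusted p under 0.05.

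In non-Smurfs the levels at 40 days were compared with those at 20 days. AttC was upregulated (log2FC = 2.79, SE 0.62, edgeR BH-adjusted p = 0.0331), the only one of the 7 to be called, beside 1.57% of all genes called upregulated. AttA (2.79, SE 0.71, edgeR BH-adjusted p = 0.0571) and AttB (3.07, SE 0.84, adjusted p = 0.0713) were close to the threshold. AttD (2.93, SE 1.00), Dro (2.55, SE 0.83), edin (2.73, SE 1.12) and Mtk (0.84, SE 0.63) had edgeR BH-adjusted p from 0.121 to 0.518. The count depended on single samples. It was 0 without any 1 of the 20-day samples M-1, 1d-a, 1d-b and 1d-c, 3 without M-13 and 2 without 5h-c6 of 40 days. With DESeq2 it was 4, beside 3.49% of all genes called in either direction. Without the non-Smurf 1d-o AttC was still the one gene called (1.85, edgeR BH-adjusted p = 0.0193), and the log2FC fell to 1.79 for AttA, 1.69 for AttB, 0.88 for AttD, 1.36 for Dro, 0.45 for edin and 0.25 for Mtk. The medians of all 7 genes were higher at 30 than at 20 days in non-Smurfs. From 30 to 40 days they were higher for AttA (109 and 125 CPM), AttC (202 and 218 CPM), Dro (21.6 and 30.6 CPM) and edin (0.901 and 1.08 CPM), and lower for AttB (41.4 and 41.2 CPM), AttD (9.93 and 7.78 CPM) and Mtk (23.3 and 17.3 CPM). From 20 to 30 days 0 of the 7 were called by edgeR or DESeq2, with 0% of all genes called upregulated by edgeR. AttC had a log2FC of 1.77 (SE 0.59) there, and it was 1 of 3 of the 7 genes, with AttA and AttB, at an unadjusted p under 0.05. Of all 10260 genes, 796 were at that level in edgeR.

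In Smurfs no change with age was called for the 7 genes. From 20 to 30 days edgeR and DESeq2 called 0, beside 0% of all genes called upregulated by edgeR. An unadjusted p under 0.05 in edgeR was found for 3 of the 7 (AttC, AttD and edin), and for 669 of all 10353 genes. The log2FC ran from 0.30 (Dro, SE 0.50) to 2.32 (edin, SE 1.00). With the 1-day samples alone it ran from −0.58 to 0.41. From 20 to 40 days edgeR and DESeq2 called 0 as well, while edgeR called 17.6% of all genes in either direction. AttB (−1.01, SE 0.45, edgeR BH-adjusted p = 0.122) and Dro (−1.11, SE 0.50, adjusted p = 0.125) were the 2 of the 7 with an unadjusted p under 0.05, and AttD had a log2FC of 0.01 (SE 0.69). Of all 10353 genes, 3554 had an unadjusted p under 0.05 in the same edgeR comparison. The 40-day Smurf 1d-r was far above its mates for several genes, with 158 CPM of AttD against 16.0 to 38.2 CPM in the other 5, and without it 1 gene was called.

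**Figure D3:**
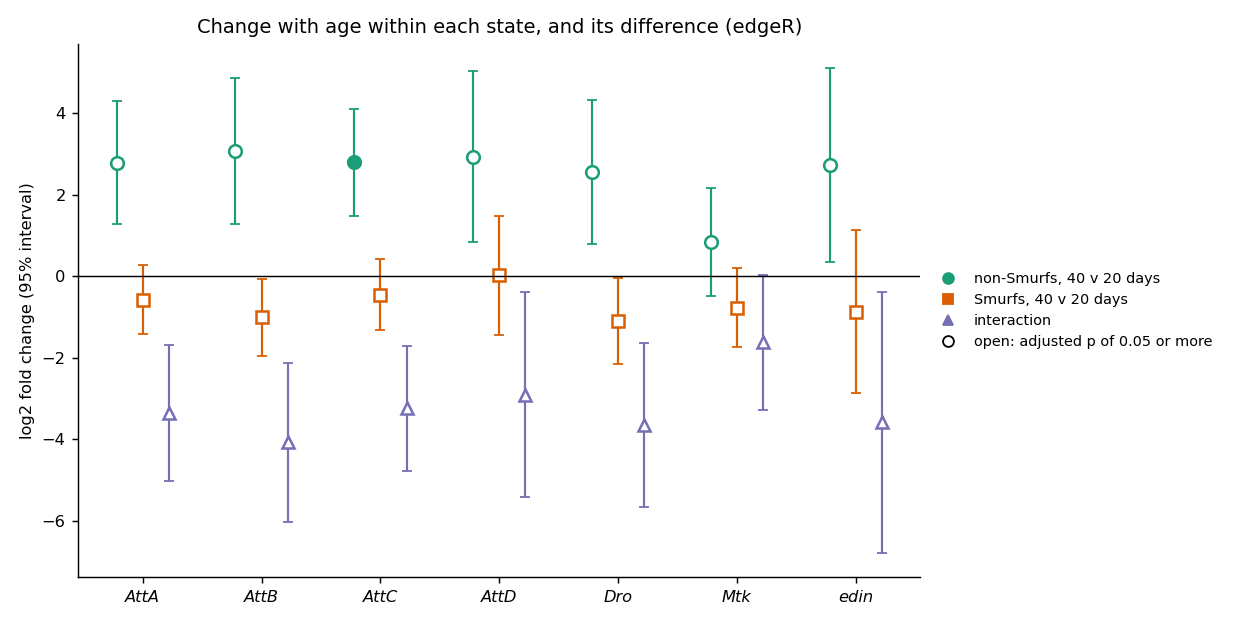
The log2FC of 40 against 20 days with its 95% interval (y axis) in non-Smurfs and in Smurfs for each gene (x axis), and the interaction, with open symbols where the edgeR adjusted p was 0.05 or more. Only AttC in non-Smurfs, at 2.79, has a closed symbol, and the interaction is negative for all 7 genes, from −4.08 to −1.62.

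The 8 collection events, each with equal numbers of Smurfs and non-Smurfs, gave the ratio of mean CPM at matched moments. At 20 and 30 days all 7 genes were higher in Smurfs at each of the 5 events, and every Smurf of an event was above every non-Smurf of it. The ratio ran from 6.12 (Mtk) to 34.4 (AttB) at 20 days in the 1-day samples and from 2.04 to 9.07 in the mixed pair. At 30 days it ran from 2.56 (Mtk) to 10.2 (edin) in the 1-day samples, from 4.96 (Mtk) to 65.4 (edin) in the 5-hour samples and from 4.31 (Mtk) to 91.8 (edin) in the mixed pair. Mtk had the smallest ratio at all 5 of these events.

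At 40 days the 5-hour samples had ratios from 1.66 (edin) to 4.07 (Mtk), and all 7 genes were higher in both Smurfs than in both non-Smurfs. In the mixed pair 6 of the 7 were higher in the Smurf, with AttD at 5.57, and Mtk was at 0.871. In the 1-day samples 2 of the 7 had a ratio above 1, with values from 0.776 (Mtk) to 1.11 (AttA). Without the non-Smurf 1d-o the same ratio was 2.93 for AttA, 3.66 for AttB, 2.36 for AttC, 6.61 for AttD, 2.82 for Dro, 1.33 for Mtk and 8.62 for edin.

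**Figure D4:**
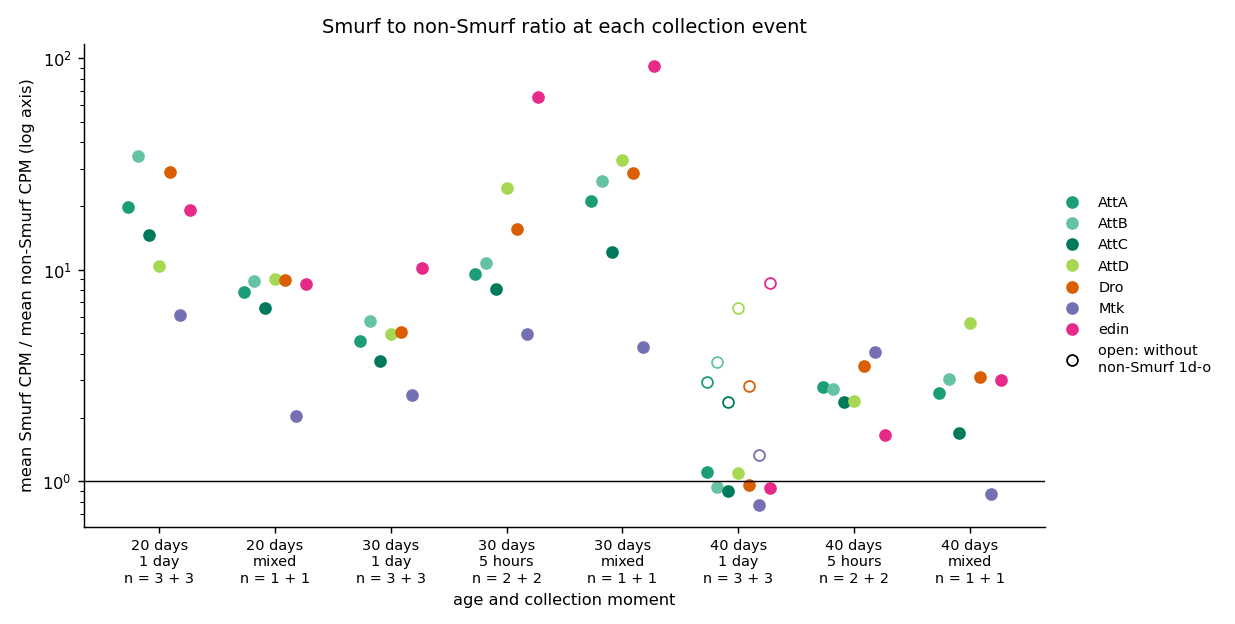
Mean CPM in Smurfs over mean CPM in non-Smurfs (log axis) at each of the 8 collection events (x axis, with the number of samples in each state), with 1 point per gene and open points for the 40-day 1-day event without the non-Smurf 1d-o. All 7 ratios are above 2 at the 5 events of 20 and 30 days, up to 91.8 for edin, and at 40 days and 1 day they lie between 0.776 and 1.11 with 1d-o.

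Samples collected 5 hours and 1 day after the transition were compared at 30 and 40 days, with age as a factor. In Smurfs 0 of the 7 genes were called by edgeR or DESeq2, with 0% of all genes called by edgeR and none of the 7 at an unadjusted p under 0.05. The log2FC of 5 hours against 1 day ran from 0.39 (Dro, 95% interval −0.90 to 1.69) to 0.83 (edin, −2.28 to 3.94), intervals that hold both a fall and a rise. The 30-day Smurf 5h-c3 held the highest level of all 32 samples for 6 of the 7 genes, all but Dro, and without it AttB, AttD, Dro and edin had a negative log2FC. In non-Smurfs the log2FC ran from −1.73 (edin) to −0.69 (AttB) and 0 of the 7 were called by edgeR or DESeq2, beside 0.0883% of all genes called by edgeR. The interaction of Smurfness with collection moment ran from 1.73 (AttC, SE 0.91) to 4.19 (edin, SE 1.90). It passed the threshold for 0 of the 7 and 0% of all genes with edgeR, and AttD, Dro and edin had an unadjusted p of 0.0407, 0.0402 and 0.0405 there. Of all 10454 genes, 1105 had an unadjusted p under 0.05 in that edgeR fit. DESeq2 called 0 of the 7. The comparison in non-Smurfs and the interaction both held the non-Smurf 1d-o. Without it the log2FC in non-Smurfs ran from −0.67 (Mtk) to 0.20 (AttB), and the interaction from 0.55 (AttB) to 1.28 (edin), with 0 called by edgeR and 0 at an unadjusted p under 0.05 in either. Without the Smurf 5h-c3 the interaction of edin was 0.33.

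The 7 genes varied together from sample to sample. Over the 32 samples, which include the 6 groups and so the difference between Smurfs and non-Smurfs, Pearson's r of log2 CPM ran from 0.804 (AttA with Mtk) to 0.986 (AttA with AttB). After the mean of each group was subtracted, r ran from 0.633 (AttA with Mtk) to 0.950 (AttA with AttB), and each of the 6 pairs with Mtk was at or below 0.815. AttC, which is not beside AttA, had an r of 0.932 with it within groups, and Dro, its neighbour, 0.788. The spread within groups was wide. The SD of log2 CPM about the group means was between 0.78 (AttC) and 1.46 (edin), against a median of 0.17 over all genes tested, and lay between the percentiles 97.5 and 99.4 of these genes. These correlations and spreads include the non-Smurf 1d-o and were not computed without it. For AttD the SD was 1.83 in 40-day non-Smurfs, the group of 1d-o, and between 0.48 and 1.28 in the other groups.

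**Figure D5:**
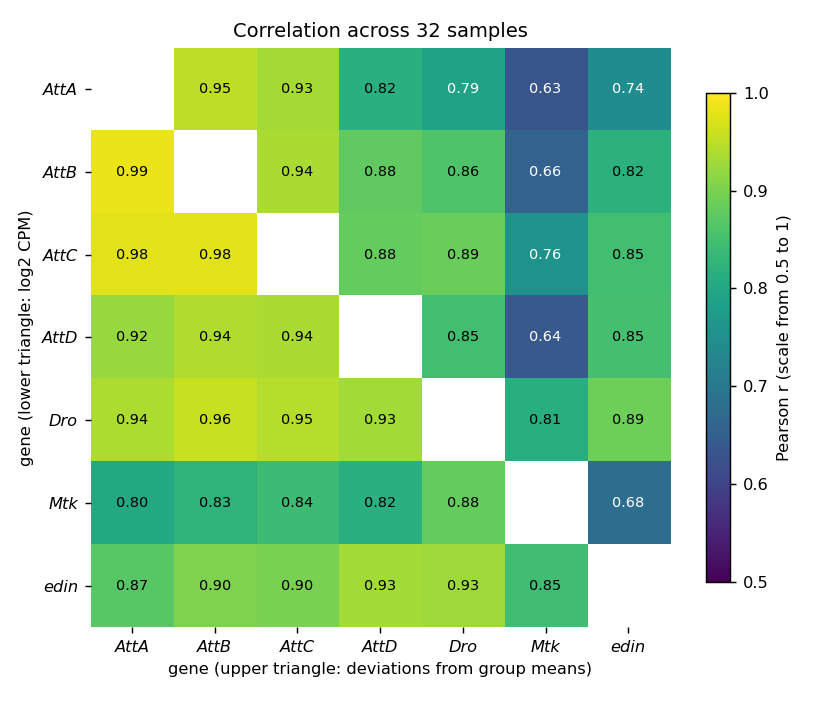
Pearson's r between the 7 genes over 32 samples (both axes list the genes), for log2 CPM below the diagonal and for deviations from group means above it, with the colour scale from 0.5 to 1. AttA and AttB have the highest value in both triangles (0.99 and 0.95), and the values of Mtk within groups lie between 0.63 and 0.81.

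The genes most like these 7 were ranked by Pearson's r, over the 32 samples, with the mean of their standardised log2 CPM, among 9663 genes whose mean log2 CPM was 0 or more. The first 5 were other antimicrobial peptides, namely DptB (r = 0.982), CecC (0.957), DptA (0.955), CecA2 (0.946) and CecA1 (0.943). After them came CG45045 (0.940), CG9701 (0.935), CG9733 (0.933), Listericin (0.924) and Rel (0.922), which encodes Relish. Within groups r was 0.941 for DptB and 0.765 for Rel. These values describe samples that share the same groups and libraries, 1d-o among them, and were not computed without it. CecB ranked 11, Def 27 and Drs 85, the last being the gene whose promoter drives the reporter of this line.

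Other genes of the immune pathways were taken as lists. All 8 of the other antimicrobial peptide genes were upregulated in Smurfs over all ages, with a median log2FC of 2.11, led by CecB (2.59, edgeR BH-adjusted p = 0.0059), CecA2 (2.36, adjusted p = 0.00373) and CecA1 (2.27, adjusted p = 0.00739), and with Def (1.39) and Drs (1.11) at the low end. At 20 and 30 days 8 of 8 were upregulated too, and at 40 days edgeR called 0 of 8, with 0 at an unadjusted p under 0.05. The fit at 40 days held the non-Smurf 1d-o, whose summed level of the 8 genes, 2961 CPM, was the highest at that age. The other 40-day non-Smurfs lay between 671 and 1645 CPM, and the lists were not tested without 1d-o. Over all ages the changes of these 8 genes were of the size of those of the 7 genes, and those of the signalling genes were far smaller.

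Of the 11 Imd signalling genes 4 were upregulated over all ages, with a median log2FC of 0.08 over the 11. These were Rel (0.59, edgeR BH-adjusted p = 0.000107), the receptor PGRP-LC (0.55, adjusted p = 0.000381), the IKK subunit key (0.17, adjusted p = 0.0058) and the ubiquitin ligase Diap2 (0.08, adjusted p = 0.0233). Of 10 tested inhibitors of the pathway 5 were upregulated, with a median of 0.18 over the 10. They were PGRP-SC2 (0.90, edgeR BH-adjusted p = 0.0241) and PGRP-LB (0.67, adjusted p = 0.00137), which degrade peptidoglycan, pirk (0.76, adjusted p = 0.00579) and PGRP-LF (0.69, adjusted p = 0.000108), which act on the receptors, and the deubiquitinase CYLD (0.13, adjusted p = 0.0366). Of 17 Toll pathway genes 5 were upregulated, led by the recognition protein PGRP-SD (0.76, edgeR BH-adjusted p = 0.00354), the serpin nec (0.42, adjusted p = 0.0394) and the NF-kappaB factor dl (0.26, adjusted p = 0.000114). The ligand gene spz (0.25, edgeR BH-adjusted p = 0.00407) and the inhibitor cact (0.20, adjusted p = 0.00407) were the other two, and GNBP3, which recognises fungi, was lower (−0.45, adjusted p = 0.0157). Read against the 11.4% of all genes called upregulated, these are 4 of 11, 5 of 10 and 5 of 17. No gene of the 3 lists was called at 40 days by edgeR in the fit that held 1d-o. An unadjusted p under 0.05 was found there for 3 of 11, 2 of 11 and 1 of 17, with 11 inhibitors tested in that fit. Of all 10529 genes, 1130 were at that level.

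Marker genes of tissues moved with the same comparison. Of 7 fat body markers 5 were tested over all ages and all 5 were lower in Smurfs, with a median log2FC of −1.34. They were apolpp (−1.13), Lsp2 (−1.84) and the yolk protein genes Yp1 (−1.19), Yp2 (−1.43) and Yp3 (−1.34). The summed level of the 7 ran from 1695 to 20612 CPM in Smurfs and from 8850 to 28493 CPM in non-Smurfs. Of 4 haemocyte markers tested 3 were lower, with summed levels of 27.8 to 150 CPM in Smurfs and 64.3 to 207 CPM in non-Smurfs. Of 8 gut markers 7 were lower, with sums of 1415 to 4398 and 1996 to 5034 CPM, and of 6 eggshell markers 6 were lower, with sums of 0.902 to 551 and 39.6 to 1197 CPM. The remaining gut marker, mex1, had a log2FC of 0.25 and was not called (SE 0.10, edgeR BH-adjusted p = 0.0628). Of all genes tested 11.3% were called lower. No marker of these 4 lists was at or under 3 counts in all samples. The direction of the markers called lower was opposite to that of the 7 genes, and the part of tissue make-up in the levels of the 7 was not tested. The 40-day non-Smurf 1d-o had the highest sums of the fat body (28493 CPM), gut (4935 CPM) and eggshell (999 CPM) lists among the 40-day samples. Its haemocyte sum was 75.7 CPM, within the range of 64.3 to 127 CPM of the 40-day non-Smurfs. In the same order of lists, the Smurf 1d-r had 4373, 2691, 1.33 and 31.6 CPM.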

How the data were processed

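RNA-Seq was performed by the authors on pools of whole Drs-GFP females with stranded mRNA libraries and paired-end reads. Per the submitters' processing notes and the paper, reads were checked with FastQC, aligned with HISAT2 on BDGP6 and counted with featureCounts. The deposited values are raw counts per gene and sample, without normalization. Strand and multi-mapping settings of the counting are not given in the sources used here, so values of AttA and AttB, and those of overlapping genes, carry that uncertainty. Positions are from BDGP6.54, joined by gene identifier.

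Every column was matched to its sample by name and groups were taken from the labels. Replicates were compared in pairs before averaging, and the chi-square statistic per degree of freedom was at least 6.79 over 72 pairs, so each sample counted on its own. Tests used edgeR 4.0.16 in R 4.3.3 (TMM, filterByExpr by the groups compared, glmQLFit, glmQLFTest, two-sided), fitted on all genes with Benjamini-Hochberg adjustment and a threshold of 0.05. The SE was the size of the log2FC divided by the square root of F. Smurfness at each age and its interaction with age were fitted on 6 groups of all samples, and age within a state on that state alone. Log2 CPM had a prior count of 2. The steps were tested on simulated data with the same spread for every gene and no outlying sample. Those tests do not cover the wide spread of the 7 genes or the low counts of edin. Total counts had a median of 17698473, and the spread between pools, which the tests use, was above sampling noise in all pairs.

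Alternatives were RLE size factors, DESeq2 1.42.0, no filter or a minimum of 10 counts in each sample fitted, restricted sets of samples, added terms and leaving out each sample in turn. The 7 genes and the gene lists were chosen with earlier results of these data known. The genes named are the 7 in every comparison, the 3 largest and 2 smallest changes called in each list, and the 10 genes most like the 7. The remaining called list members were named after their values were seen. One of the 86 listed symbols, Nplp2, was not matched. Values and plots came from Python 3.11.15, pandas 2.3.3, numpy 2.4.6 and matplotlib 3.10.9.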

Additional observations from a re-analysis of the deposited data

Results flagged for a closer look

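Each of the 7 genes was examined in each of the 6 groups for a sample that lies far from the others of its group, on the log2 CPM scale. The measure was Dixon's, the gap from the highest or lowest sample to its neighbour as a share of the range of the group, with the 95% critical value for the size of the group. Of these 42 sets 6 passed it, a level that chance passes in about 1 in 20 sets. In 5 of them the sample was the 40-day non-Smurf 1d-o, which stood above its group with 890 CPM of AttA, 399.6 CPM of AttB, 1452 CPM of AttC, 177 CPM of AttD and 23.1 CPM of edin. Dro and Mtk were also highest in this sample, with 275 and 69.2 CPM, without lying as far from the rest. The level of 1d-o was 4.44 times that of the next non-Smurf for AttA, 6.82 times for AttB, 12.4 times for AttD and 17.3 times for edin. The sixth was AttB in 40-day Smurfs, where 1d-r had 278 CPM. The genes vary together, so these flags are not independent of each other.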

How the results depend on the processing

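The 7 genes were called over all samples under each alternative that kept all of them in the test, except that 6 were called without the mixed samples and 0 in the 1-day samples (7 without the non-Smurf 1d-o as well, a set chosen after seeing the data) and 0 in the 5-hour samples. A minimum of 10 counts in every sample removed edin from the tests of Smurfs against non-Smurfs. At 40 days leaving out 1 sample gave 0 to 3 calls (3 without the non-Smurf 1d-o), and leaving out the 3 Smurfs and 1d-o together, also chosen after seeing the data, gave 3. The interaction gave 4 calls with DESeq2 (beside 0.892% of all genes) and 0 to 3 with 1 sample left out, 3 without the 40-day Smurf 1d-r and 1 without the 30-day Smurf 1d-j. The single call in non-Smurfs of 40 against 20 days became 4 with DESeq2, 0 without the mixed samples, 4 in the 1-day samples, 3 with all 32 samples in 6 groups and 0 to 3 with 1 sample left out. The share of all genes called in either direction moved too, from 1.89% in the main fit. It was 3.49% with DESeq2, 1.22% without the mixed samples, 4.84% in the 1-day samples and 1.21% with all 32 samples in 6 groups. In Smurfs of 40 against 20 days 0 to 1 were called with 1 sample left out. The causes were not tested beyond the sets of samples themselves.

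Values with no call changed sign under some alternatives. With 1 sample left out, the log2FC of Smurfs against non-Smurfs at 40 days ran from −0.032 to 1.74 for AttB, −0.065 to 1.21 for AttC, −0.43 to 2.46 for AttD, −0.078 to 0.91 for Mtk and −0.96 to 2.44 for edin. That of Smurfs at 40 against 20 days ran from −0.84 to 0.19 for AttD. In Smurfs at 5 hours against 1 day it ran from −0.15 to 0.92 for AttB, −0.62 to 1.19 for AttD, −0.32 to 0.82 for Dro and −1.84 to 1.61 for edin, the lowest value in each without 5h-c3, and in non-Smurfs from −1.08 to 0.20 for AttB. In Smurfs at 30 against 20 days, Dro ran from −0.020 to 0.49 and was at −0.020 without the 32-day samples, and the 1-day samples gave −0.21 for AttA, −0.47 for AttB and −0.58 for Dro. At 20 days the count of 6 ran from 4 to 7 with 1 sample left out. Of all values recomputed, 2421 kept their direction and their side of the threshold, 48 lost and 32 gained a call, and 24 changed sign. No paired analysis was possible because sample names are unique within the study and no number is shared between groups. Collection event as a block, a design that uses the matched moments, left 7 of 7 called over all samples. Depth limits edin most, with 3 to 20 counts in 20-day non-Smurfs.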
